A study of Mus musculus with 6 samples.

Results

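The receptors for the cytokines IL-12 and IL-23 and the kinases and transcription factor behind them were examined in memory-phenotype CD4+ T cells from mice with experimental autoimmune encephalomyelitis (EAE), an inflammatory demyelinating disease of the spinal cord used as a model of multiple sclerosis. Of 6 genes named for this pathway, Il12rb1, Il12rb2, Il23r, Stat4, Jak2 and Tyk2, 5 had a probe set annotated to that gene alone, giving 7 probe sets among 34945 with a single gene symbol. Il23r was not analysed here. All arrays came from female C57BL/6 mice aged 8 to 10 weeks, at the acute clinical stage of EAE induced with the peptide MOG35-55, and no unimmunised or untreated group was compared. Expression arrays were run on cells of the spinal cord (3 arrays) and of the draining inguinal lymph nodes (3 arrays). Values per array are listed in the order of the array numbers 1, 2 and 3. How many animals were pooled for an array is not stated in the labels, so the p-values below measure the spread between these arrays, which may be technical.

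IL-12 binds a receptor made of the chains IL-12Rβ1 (Il12rb1) and IL-12Rβ2 (Il12rb2), while IL-23 binds IL-12Rβ1 together with IL-23R (Il23r). The chains carry no kinase of their own and signal through Tyk2, attached to IL-12Rβ1, and Jak2, attached to the partner chain. IL-12 acts mainly through Stat4 and drives interferon-γ production by type 1 helper cells, whereas IL-23 acts mainly through Stat3 and sustains type 17 helper cells. The shared p40 subunit, IL-23 and type 17 cells are known for their role in EAE.

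The arrays read as T cells in both tissues. The 7 measured T cell genes were Cd2, Cd3d, Cd3e, Cd3g, Cd4, Cd5 and Cd28. Their summed intensity ranged over 34745 to 41995 in spinal cord against 34621 to 47785 in lymph node. None of the 7 was called different, but only 1.13% of all genes were called higher and 1.41% lower. Cd5 read lower in spinal cord in each array number (log2 difference -0.56), and 3 of the 7 differences were positive. Among other cell types, 14 macrophage and microglia genes summed to 1332, 5205 and 2696 in spinal cord, against 706 to 817 in lymph node, with Mrc1 alone at or below an intensity of 25 on every array. Their 14 log2 differences were all positive, with a median of 0.68. With tissue alone 0 were called. With the block described below 5 were called higher, against 3.67% of all genes. The 9 dendritic cell genes summed to 891, 2556 and 2149 against 549 to 668, and all 9 differences were positive (median 0.18). Itgax was called higher with tissue alone, and Itgax and H2-Ab1 with the block. The 7 neutrophil genes summed to 396, 1604 and 595 against 312 to 431. All 7 of their differences were positive (median 0.85), with 0 called in either fit. The 6 B cell genes summed to 1392 to 1943 in spinal cord against 5827 to 9021 in lymph node, with Cd22 and Ighm called lower in spinal cord. Ighm made up most of the lymph node sum. Cd79b (log2 difference -1.15) was called lower only with the block. Ms4a1 (39, 33 and 28 against 43, 38 and 27) and Cd79a (54, 45 and 36 against 63, 43 and 40) were not called. Pax5, also not called, had a positive log2 difference of 0.28. Arrays have no read depth; their number limits the precision, and array medians lay between 68 and 71. An intensity of 25 was the 20th percentile of all values and is used below as a mark of the low end.

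Across all 18193 genes, limma with Benjamini-Hochberg adjustment called 206 higher (1.13%) and 257 lower (1.41%) in spinal cord, a gene being called at an adjusted p under 0.05. None of the 5 measured receptor and signalling genes was among them, and 2 had an unadjusted p under 0.05 (Il12rb2 and Jak2), against 14.3% of all genes. In both tissues the sample titles carry the numbers 1 to 3. Arrays of the same number deviated together from their tissue means, and a fit that took the number as a block called 668 genes (3.67%) higher and 1355 (7.45%) lower. In that fit Il12rb2 was called higher and Jak2 lower, 1 of 5 in each direction. The same 2 genes were those whose tissues did not overlap on any array, a pattern shown by 18.5% of all genes.

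Il12rb2, the chain that pairs with IL-12Rβ1 to make the IL-12 receptor and whose presence on helper cells marks commitment to the type 1 lineage, gave the largest difference of the 5 genes. The spinal cord arrays gave intensities of 102, 41 and 48, and the lymph node arrays 33, 24 and 26. Every spinal cord array read above every lymph node array, and spinal cord array 1 stood above the other two. The lymph node signal was near the low end, with array 2 below the intensity of 25. Spinal cord arrays 2 and 3 also read below the array medians of 68 to 71. In log2 units the means were 5.87 ± 0.70 and 4.78 ± 0.24 (SD, n = 3 each), a difference of 1.10 ± 0.36 (SE) or 2.14-fold, with a 95% interval of 1.16-fold to 3.92-fold. Limma gave an adjusted p of 0.232 with tissue alone and 0.0245 with the number as a block. With 16 added before log2 the difference was 0.80 in place of 1.10 (limma adjusted p = 0.309). In bulk samples such as these, fewer cells that carry a transcript and less of it per cell cannot be told apart.

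Within numbers the Il12rb2 ratio of spinal cord to lymph node was 3.09, 1.71 and 1.85. All 3 ratios lay above 1, and the number 1 ratio was the highest. Without spinal cord array 1 the log2 difference was 0.69 in place of 1.10, and the 6 fits without a single array ranged from 0.69 to 1.35 with adjusted p from 0.210 to 0.535. In an alternative chosen after seeing the data, the block fit was repeated with both arrays of a number left out. The Il12rb2 difference was then 0.83 without number 1 (adjusted p = 0.0638), 1.26 without number 2 and 1.20 without number 3. Without number 2 or 3 that limma fit called 0 of all genes (2985 and 2591 had an unadjusted p under 0.05), so its adjusted p there does not bear on Il12rb2. The macrophage and microglia sums were 1332, 5205 and 2696 in spinal cord arrays 1, 2 and 3, all above the 706 to 817 of lymph node. Array 1 had the lowest of these spinal cord sums, and it was the highest for Il12rb2 in both tissues (33 against 24 and 26 in lymph node). The order of 3 arrays does not decide the source of the Il12rb2 signal. Natural killer cells also carry this receptor. The 6 measured genes of CD8 T cells and natural killer cells summed to 638 to 950 in spinal cord against 600 to 1647 in lymph node. With tissue alone Klrk1 was called higher (210, 220 and 229 against 99, 72 and 92, 2.53-fold, limma adjusted p = 0.0136) and 0 were called lower. Eomes lay the other way, at 52, 93 and 306 against 113, 406 and 1185 (limma adjusted p = 0.534). With the block Eomes was called lower (limma adjusted p = 0.00898). Ncr1 gave 51 to 64 against 50 to 60, and Klra8 was at or below 25 on every array. The parts of macrophages and microglia, and of CD8 T cells and natural killer cells, in the Il12rb2 difference were not tested. The exact two-sided permutation test of Il12rb2 gave p = 0.1, the smallest that 3 against 3 arrays allow.

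The promoters of the 2 genes whose tissues did not overlap are shown because their base composition differs. Each window runs from 250 bases before to 50 bases after the annotated start in RefSeq (build GRCm38.p6), 5′ to 3′ on the strand of the gene. Windows were found for 5 of the 6 named genes, all but Il12rb1. Capitals in the first mark the letters TTCNNNGAA, the spaced palindrome that STAT proteins bind.

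Il12rb2, chr6:67376139-67376438, minus strand: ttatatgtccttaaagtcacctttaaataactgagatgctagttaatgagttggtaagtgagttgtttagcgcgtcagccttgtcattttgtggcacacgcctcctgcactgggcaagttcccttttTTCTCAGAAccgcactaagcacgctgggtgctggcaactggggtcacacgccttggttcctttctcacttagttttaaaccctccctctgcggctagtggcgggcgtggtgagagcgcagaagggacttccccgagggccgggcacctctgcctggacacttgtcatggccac

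Jak2, chr19:29251553-29251852, plus strand: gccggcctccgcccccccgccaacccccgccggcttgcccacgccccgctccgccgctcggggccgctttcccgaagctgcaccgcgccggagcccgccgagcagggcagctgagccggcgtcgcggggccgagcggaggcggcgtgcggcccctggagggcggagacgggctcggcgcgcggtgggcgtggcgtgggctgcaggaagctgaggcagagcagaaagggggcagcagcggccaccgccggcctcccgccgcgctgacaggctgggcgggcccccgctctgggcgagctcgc

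The Il12rb2 window was 53.0% G or C and held 12 CpG dinucleotides, whereas the Jak2 window was 81.0% G or C with 44 CpG, a G and C content above that of 99.3% of 32851 promoter windows. TTCNNNGAA, which reads the same on both strands, occurred once in the Il12rb2 window, starting at base 128, and in none of the other 5 windows of the named genes (Stat4 has 2 windows). It occurred in 8.3% of all windows of the same length. The T-box motif GGTGTGA, searched on both strands and found in 3.98% of all windows, was in none of the 6. The searches were for letters only, and a match is not a bound site.

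Il12rb1, the chain shared by the IL-12 and IL-23 receptors, gave 1076, 616 and 527 for spinal cord, against 668, 474 and 381 for lymph node. In each number the spinal cord array read above its lymph node counterpart, but the tissues overlapped, since lymph node array 1 lay above spinal cord arrays 2 and 3. The log2 means were 9.46 ± 0.54 and 8.95 ± 0.41 (SD, n = 3 each), a difference of 0.51 ± 0.33 (SE) or 1.43-fold, with a 95% interval of 0.816-fold to 2.49-fold that spans equality. Limma gave an adjusted p of 0.583 with tissue alone and 0.0514 with the block, neither of which passed the threshold. The ratios within numbers were 1.61, 1.30 and 1.38, closer to each other than those of Il12rb2. Without spinal cord array 1 the log2 difference was 0.21, and without lymph node array 1 it was 0.73. The exact two-sided permutation p was 0.3.

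**Figure D1:**
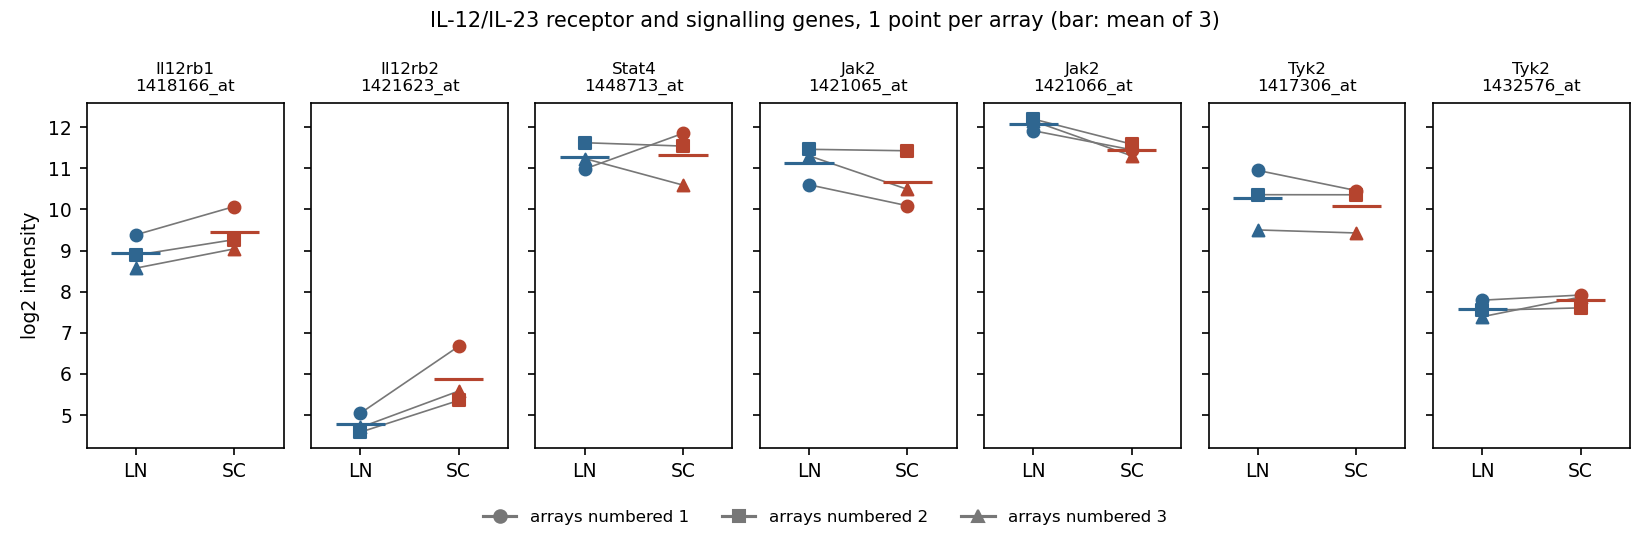
Log2 intensity of each of the 7 probe sets in lymph node (LN, blue) and spinal cord (SC, red), with 1 point per array, lines joining arrays of the same number and bars at the mean of 3 arrays. The Il12rb2 arrays and those of the Jak2 probe set 1421066_at do not overlap between tissues, while the Stat4 lines cross.

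Stat4, the transcription factor activated by IL-12, had differences of either sign. Spinal cord gave 3691, 2978 and 1543, against 2025, 3152 and 2415 for lymph node, and the tissues overlapped. The ratio of spinal cord to lymph node was 1.82 in number 1, 0.945 in number 2 and 0.639 in number 3, so the sign differed among numbers. The log2 difference was 0.046 ± 0.35 (SE) from means of 11.33 ± 0.66 and 11.28 ± 0.32 (SD, n = 3 each), with a 95% interval from 0.568-fold to 1.88-fold. Limma gave an adjusted p of 0.973, and 0.939 with the block. The interval runs from 1.76-fold lower to 1.88-fold higher, so the p does not show that Stat4 was alike in the tissues.

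Jak2, the kinase bound to IL-12Rβ2 and IL-23R and also used by many other cytokine receptors, was represented by 2 probe sets. The brighter, 1421066_at, gave 2798, 3075 and 2525 for spinal cord, against 3858, 4696 and 4544 for lymph node. All spinal cord arrays lay below all lymph node arrays, and its SE was smaller than that of the other 4 genes. The log2 means were 11.45 ± 0.14 and 12.09 ± 0.15 (SD, n = 3 each), a difference of -0.64 ± 0.14 (SE) or 1.56-fold lower in spinal cord, with a 95% interval of 1.24-fold to 1.96-fold lower. Limma gave an adjusted p of 0.0833 with tissue alone and 0.0321 with the block. The ratios within numbers were 0.725, 0.655 and 0.556, and the exact two-sided permutation p was 0.1, the smallest possible. Of the 6 B cell genes, Cd22 and Ighm were called lower in the same arrays, while Cd79b, Pax5, Ms4a1 and Cd79a were not called with tissue alone. Ighm made up most of their sum in lymph node (8119 of 9021 in array 1). The part of B cell RNA in the Jak2 difference was not tested.

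The other Jak2 probe set, 1421065_at, gave 1090, 2752 and 1437 for spinal cord, against 1552, 2821 and 2529 for lymph node. Its tissues overlapped, and its ratios of 0.702, 0.976 and 0.568 lay on the same side as those of the brighter probe set. Its log2 difference was -0.45 ± 0.40 (SE), with an adjusted p of 0.746 over all probe sets and 0.200 with the block. Averaging both probe sets gave a Jak2 difference of -0.55 with an adjusted p of 0.391. With both arrays of a number left out of the block fit, the Jak2 difference was -0.73 without number 1 (adjusted p = 0.0799), -0.66 without number 2 and -0.54 without number 3, the last pair again from fits that called 0 genes.

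Tyk2, the kinase bound to IL-12Rβ1, had 2 probe sets whose differences were of opposite sign. The brighter, 1417306_at, gave 1408, 1311 and 689 for spinal cord, against 1978, 1313 and 725 for lymph node. Numbers 2 and 3 were close to equal between tissues (ratios 0.998 and 0.95), and number 1 gave 0.712. The log2 difference was -0.19 ± 0.44 (SE) from means of 10.08 ± 0.57 and 10.27 ± 0.73 (SD, n = 3 each), with a 95% interval from 0.417-fold to 1.85-fold and an adjusted p of 0.907, or 0.464 with the block. The second probe set, 1432576_at, gave 242, 195 and 234 for spinal cord, against 222, 187 and 168 for lymph node, a log2 difference of 0.22 ± 0.15 (SE) with an adjusted p of 0.665 over all probe sets. The tissues overlapped in both.

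**Figure D2:**
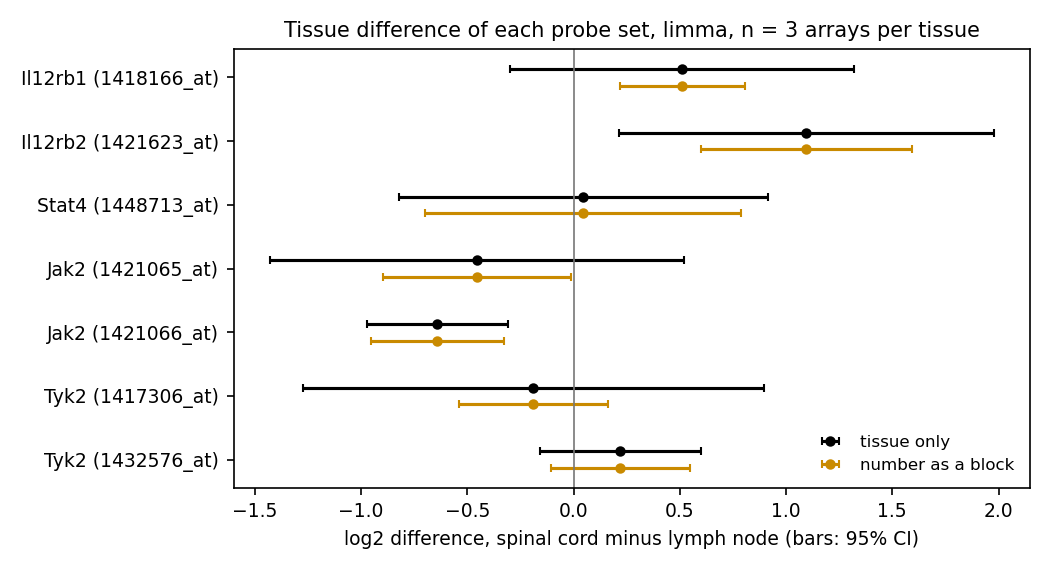
Log2 difference, spinal cord minus lymph node, of each of the 7 probe sets with its 95% interval from limma over all probe sets, with tissue alone (black) and with the array number as a block (yellow). The intervals of Il12rb2 and of Jak2 1421066_at lie to one side of 0 in both fits before adjustment, and those of Stat4 and both Tyk2 probe sets span 0 in both.

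The spread within a tissue followed the array number in several of these genes. In both tissues Il12rb1 and the brighter Tyk2 probe set were highest in array 1 and lowest in array 3. The standard error of Tyk2 was 0.44 with tissue alone and 0.14 with the block, that of Il12rb1 0.33 and 0.12, and that of Stat4 0.35 and 0.28. What the number stands for is not given in the labels.

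**Figure D3:**
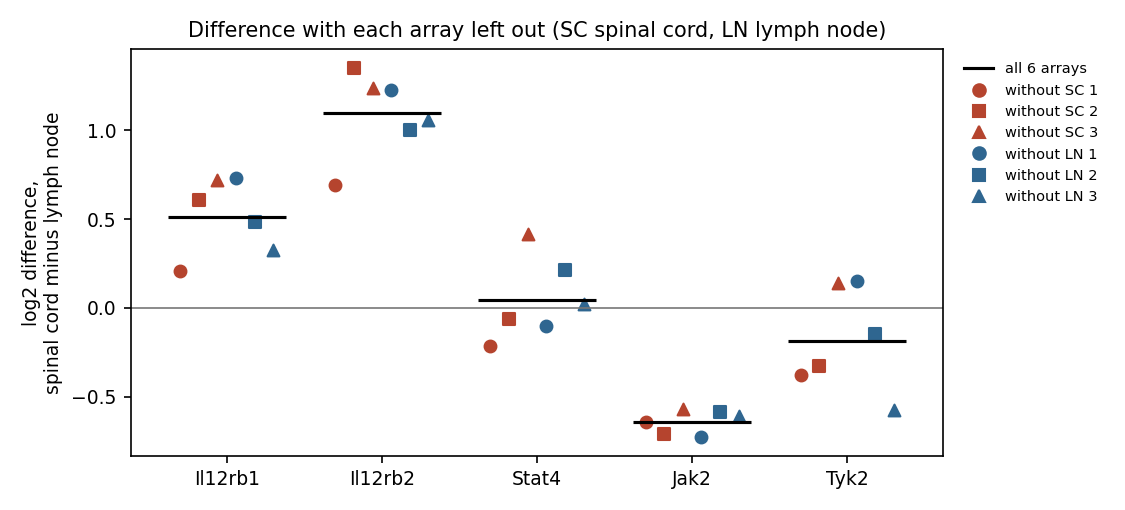
Log2 difference, spinal cord minus lymph node, of the 5 genes with all 6 arrays (black bars) and with each array left out (red for spinal cord, blue for lymph node). Il12rb1, Il12rb2 and Jak2 keep their sign in all 6 fits, with Jak2 between -0.73 and -0.57, while Stat4 (-0.22 to 0.41) and Tyk2 (-0.57 to 0.15) do not.

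By root mean square difference of centred log2 values over the 6 arrays, among 16060 other genes with a mean above the 20th percentile in either tissue, the nearest to Il12rb2 were Map6 (0.144) and Grasp (0.177), and to Il12rb1 they were 4921504E06Rik (0.0761) and Marveld1 (0.083). Nearest to Jak2 were Wdr76 (0.0428) and Pptc7 (0.067), to Stat4 Glcci1 (0.132) and Elovl7 (0.144), and to Tyk2 Fbf1 (0.044) and Ulk1 (0.0575). Grasp, with a log2 difference of 1.00, had an adjusted p of 0.144, and none of these 10 genes was called with tissue alone. These likenesses describe 6 arrays only.

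The ligand subunits stood near the low end of the arrays, apart from Ebi3. Ebi3, which pairs with other subunits to form IL-27 and IL-35, fell in spinal cord, from 930, 937 and 1472 in lymph node to 341, 224 and 288 (3.88-fold lower, log2 difference -1.96 ± 0.25 SE, limma adjusted p = 0.018). Leaving out 1 array at a time, it lost the call in 3 of 6 fits (lymph node array 2, spinal cord array 2 or 3; adjusted p up to 0.0781). Il12b, the p40 subunit shared by IL-12 and IL-23, read 28 to 37 on all arrays, and Il12a (p35) and Il23a (p19) read 17 to 25. These subunits are made mainly by dendritic cells and macrophages. Of 4 measured ligand genes 0 were called higher and 1 lower, against 1.13% and 1.41% of all genes. Their median difference was 0.033 against 0.0019 over all genes, and Il27 was not analysed here.

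Receptors related to the IL-12 family or downstream of it moved in different directions. Of 9 measured, Il6st alone was called (lower), against 1.13% of all genes called higher and 1.41% lower. Il6st encodes gp130, a shared chain of the IL-6 and IL-27 receptors. Il6st was 15.2-fold lower in spinal cord (166, 292 and 270 against 4588, 3440 and 2920, limma adjusted p = 0.00482). Its log2 difference was -3.93, and -3.94 to -2.46 over 13 other planned settings with all arrays, called in each. The list median was -0.051, and the block gave 2 higher and 2 lower, against 3.67% and 7.45% of all genes. The 2 higher were Ifngr1, a chain of the interferon-γ receptor (log2 difference 1.76 ± 0.33 SE, adjusted p = 0.0581; 0.00344 with the block), and Il18rap. Il18rap, the accessory chain of the IL-18 receptor and a known target of IL-12 signalling, read 4905, 6997 and 2593 against 937, 1453 and 1037 (1.99 ± 0.38 SE, adjusted p = 0.0634; 0.00717 with the block). Its partner Il18r1 differed by 0.56 ± 0.18 SE (adjusted p = 0.216) and the IL-1 receptor gene Il1r1 by 0.41 ± 0.29 SE (adjusted p = 0.619). Il6ra, the IL-6 binding chain, was the other lower gene with the block (-3.02 ± 0.57 SE, adjusted p = 0.0606; 0.00654 with the block).

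None of the other 7 measured JAK and STAT genes was called in either fit, and their median difference was -0.033. Stat3, the main STAT of IL-23 signalling, gave 4416, 2783 and 1464 for spinal cord, against 4560, 2445 and 1519 for lymph node, a log2 difference of 0.029 ± 0.53 (SE, limma adjusted p = 0.994). Its most variable probe set gave 1.24, also not called. In both tissues Stat3 was highest in array 1 and lowest in array 3. The smallest adjusted p in the list was 0.682, for Stat5a (-0.26 ± 0.21 SE). The differences of Stat5b, Stat2 and Jak1 were -0.033, -0.12 and -0.067.

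Inhibitors of JAK-STAT signalling moved individually. Socs2 and Cish, suppressors known to be induced by Stat5, rose in spinal cord, with Socs2 at 1032, 719 and 666 against 148, 90 and 131 (6.57-fold, limma adjusted p = 0.00818). The Socs2 log2 difference was 2.72, and 1.18 to 2.78 over 13 other planned settings with all arrays, called in each. Cish was 6.83-fold higher (adjusted p = 0.0148). Socs5 fell, being 2.66-fold lower (adjusted p = 0.039). Of 18 genes 2 were higher, 1 lower and 15 not called, against 1.13% higher and 1.41% lower among all genes. The list median was -0.22. With the block 2 were higher and 3 lower, against 3.67% and 7.45% of all genes. Socs1 and Socs3, the suppressors of interferon-γ and of IL-6 and IL-23 signalling, had log2 differences of 0.065 ± 0.30 and 0.065 ± 0.46 (SE) and adjusted p of 0.955 and 0.970. Ptpn11, the phosphatase Shp2, had -0.96 ± 0.23 (SE, adjusted p = 0.115; 0.0342 with the block). Leaving out 1 array at a time, Socs2 was called in 5 of 6 fits, Cish in 2 and Socs5 in 1 (adjusted p up to 0.0516, 0.0762 and 0.144).

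**Figure D4:**
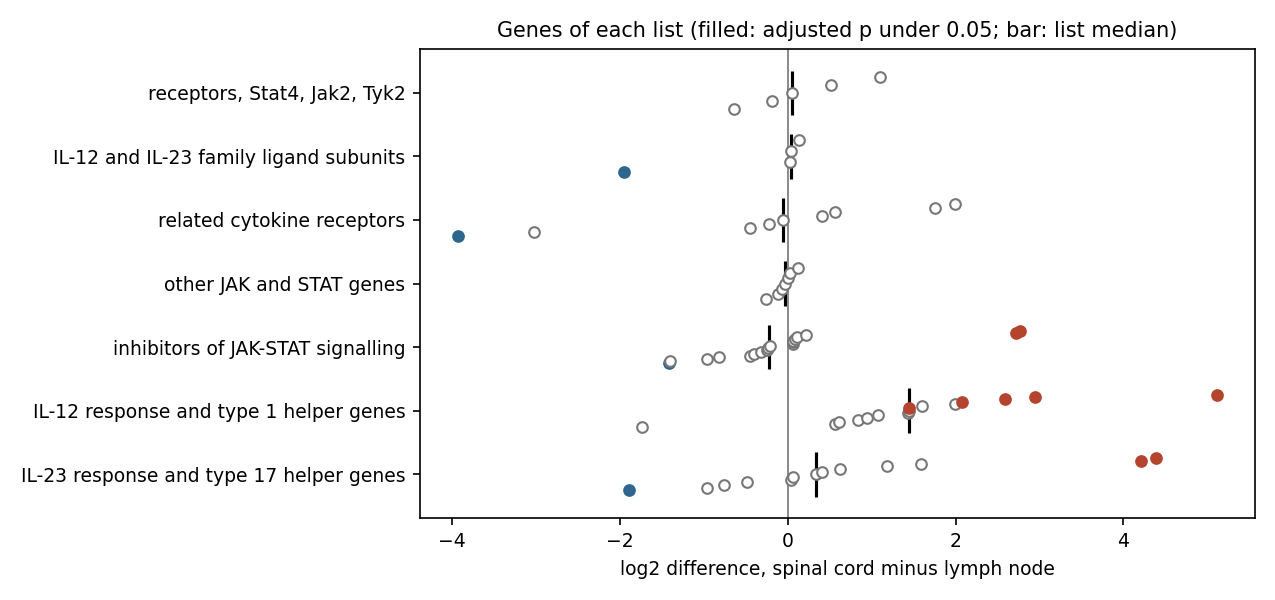
Log2 difference, spinal cord minus lymph node, of the 5 receptor and signalling genes and of every measured gene in 6 lists of the pathway. Filled points passed an adjusted p under 0.05 (red higher, blue lower), open points did not, and bars mark list medians, from -0.22 for the inhibitors to 1.44 for the IL-12 response list.

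Genes known to respond to IL-12 or to mark type 1 helper cells were the list with the largest median, 1.44 over 15 measured genes. This list was chosen with earlier results of these data known. Of the 15 genes 14 had positive differences, 5 were called higher and 0 lower, against 1.13% and 1.41% of all genes. The block gave 12 higher and 1 lower (Eomes), against 3.67% and 7.45% of all genes. With tissue alone the higher count was 2 without spinal cord array 2 and 3 without its lymph node counterpart. Il18r1 and Il18rap are in this list and that of related receptors. Tbx21, which encodes T-bet, the type 1 lineage factor that maintains Il12rb2, gave 1688, 1826 and 1477 for spinal cord, against 384, 427 and 372 for lymph node (4.21-fold, limma adjusted p = 0.00365). Ifng was 34.6-fold higher, Gadd45b, a stress gene induced by IL-12 with IL-18, 7.73-fold, and the death ligand gene Fasl 6.01-fold. Their limma adjusted p were 0.00777, 0.00777 and 0.0116. Leaving out 1 array at a time, Tbx21 and Gadd45b were called in all 6 fits. Ifng was called in 5 and Fasl in 3 (limma adjusted p up to 0.0516 and 0.0666). Map3k8, named after its value was seen, was the remaining called gene. In the same spinal cord arrays the 14 macrophage and microglia genes had a median of 0.68, and their part in this result was not tested. Among the spinal cord arrays, Ifng (12905, 18966 and 21388) was lowest in array 1, where Il12rb2 was highest.

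Genes of the IL-23 response and type 17 helper cells went both ways. Of 13 measured, Csf2 and Il17a rose and Ccr6 fell, against 1.13% of all genes called higher and 1.41% lower. The list median was 0.33. The block gave 4 higher and 2 lower, against 3.67% and 7.45% of all genes. For Il17a the spinal cord arrays gave 6420, 2152 and 1378, against 135, 173 and 90 for lymph node (20.8-fold, limma adjusted p = 0.0219), and Csf2, the GM-CSF gene, 2335, 1078 and 2142 against 101, 91 and 93 (18.5-fold, adjusted p = 0.00513). Il17a, Csf2 and Il12rb2 were all highest in spinal cord array 1, as were Il12rb1, Stat4, Tyk2, Stat3, Socs2 and Cish. The share of all genes with that order was not counted. Ccr6 was 3.72-fold lower (adjusted p = 0.0219), and Prdm1, which encodes Blimp-1, differed by 1.18 ± 0.30 (SE, adjusted p = 0.133; 0.0143 with the block). Leaving out 1 array at a time, Csf2 was called in all 6 fits, and Il17a and Ccr6 in 2 each (adjusted p up to 0.0926 and 0.111). Il17f and Il22 were not analysed here.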

How the data were processed

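The authors deposited 1 intensity per probe set and array. RMA is the method named, per the submitters' processing notes, without a version given in the sources used here; it subtracts background, equalises arrays and combines probes. The intensity values are whole numbers on a linear scale (9 to 39505, 45101 probe sets), so log2 was taken. Per the labels' protocols, cRNA was amplified in 2 cycles from 1 ng of total RNA, which can add variation between arrays and favours 3' ends.

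A single symbol was given for 34945 probe sets; 932 with several, 9160 without any and 64 controls were not used. By gene identifier 34741 matched the RefSeq table and 0 symbols changed. Each of 18193 genes took the probe set with the highest mean.

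Genes were tested with limma 3.58.1 in R 4.3.3 (lmFit, eBayes, two-sided, tissue as the only term), and probe sets in a fit of their own, each adjusted over all its features. The fits were tested on simulated data. Exact permutation tests used scipy 1.17.1. No set test was run; lists are described by counts and medians. The text names all members, up to 4 genes of each list by adjusted p, a preset group of ligand, STAT, inhibitor, cytokine and receptor genes, and the 2 nearest genes of each member. The members and lists were chosen with earlier results of these data known.

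Deviations from tissue means correlated at 0.576, 0.509 and 0.777 for same-numbered arrays and at -0.569 to 0.00506 between others of different tissues. Centring builds in part of this contrast. The pairing therefore rests on the data, not on the labels.

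Some items are not reported here.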

Additional observations from a re-analysis of the deposited data

How the results depend on the processing

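With tissue alone, none of the 5 genes was called by limma in the 6 fits without a single array, nor with a filter at the 40th percentile (where Il12rb2 was not tested), median centring, quantile normalization, a trend in the prior variance, array weights, other choices of probe set, a fit over all probe sets, 16 added before log2, a floor at the 20th percentile, or stricter thresholds. With the replicate block 1 was higher (Il12rb2, 1.10) and 1 lower (Jak2, -0.64), and it changed no other call of the 5. The genes called higher over the whole table numbered 668 with the block, 77 with the floor, 56 at an adjusted p under 0.01 and 49 to 136 without a single array, against 206. Those called lower numbered 1355, 84, 47 and 32 to 190, against 257. Added after seeing the data, the block without number 2 or without number 3 called 0 genes in either direction with limma, with 2985 and 2591 at an unadjusted p under 0.05.

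Only differences that were not called changed sign. Stat4 ran from -0.22 to 0.41 without a single array and was -0.36 under the block without number 1. Tyk2 ran from -0.57 to 0.15 and was 0.016 as the mean of its probe sets. Without a single array Il23a ran from -0.052 to 0.076, Stat5b from -0.10 to 0.040, Stat2 from -0.42 to 0.39, Jak1 from -0.29 to 0.21, Stat3 from -0.35 to 0.45, Socs1 from -0.16 to 0.32, Socs3 from -0.46 to 0.40, Glcci1 from -0.31 to 0.26, Elovl7 from -0.20 to 0.33, Fbf1 from -0.61 to 0.11 and Ulk1 from -0.51 to 0.26. With quantile normalization Il12a was -0.0064, Stat5b 0.086, Jak1 0.048, Glcci1 0.052 and Ulk1 0.017. With array weights Stat2 was 0.18, Jak1 0.12, Elovl7 0.059 and Ulk1 0.071. As the mean of probe sets Stat5b was 0.15, Glcci1 0.19 and Elovl7 0.012, and as the most variable probe set Stat5b was 0.33, Socs3 -0.16 and Glcci1 0.32. Elovl7 was 0.022 with the floor. The causes were not tested. No background signal per array is used here, which limits what can be said of Il12rb2 near the low end.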
